A study of Mus musculus with 12 samples.

Results

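The genes of DNA replication and of the G1/S transition described here were 38 transcripts, taken by gene symbol from the 55450 genes listed for each library. They were sorted by function into origin licensing (4 genes), the MCM2-7 helicase (6), helicase activation (4), polymerases and primase (4), the sliding clamp and its loader (5), Okazaki fragment maturation (2), nucleotide supply (5), E2F factors with E-type cyclins (4), and replication-coupled chromatin and repair (4). All 38 passed the filter on low counts, as did 13636 genes in all. The RNA came from pmel-1 CD8 T cells, taken from mice that carry a transgenic T cell receptor for a melanoma antigen, and the Ucp2 gene was wild type in every library. Cells received genipin, genipin with N-acetylcysteine (genipin+NAC), N-acetylcysteine alone (NAC), or vehicle, which was culture medium, with 3 libraries in each of the 4 groups. All had been activated through the receptor, by peptide or by antibodies to CD3 and CD28, and were then expanded for 4 days with IL-2 at 10 ng/ml. Genipin is a plant compound used as an inhibitor of the mitochondrial carrier Ucp2, and N-acetylcysteine is a thiol antioxidant. The labels name peptide at 1 uM and antibodies to CD3 at 2 ug/ml and to CD28 at 1 ug/ml. Which of these routes was used here, the doses of genipin and NAC, and whether replicates came from separate mice or cultures are not given in the labels, so p-values measure only the spread between these libraries.

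Before a cell enters S phase, the origin recognition complex with Cdc6 and Cdt1 loads the MCM2-7 helicase onto DNA, and Cdc45 and the GINS complex then turn it into an active helicase. Polymerase alpha with primase starts each strand, polymerases delta and epsilon extend it on the sliding clamp Pcna, and ribonucleotide reductase with thymidylate synthase and related enzymes supplies the deoxynucleotides. Many of these genes are transcribed in late G1 by E2F factors, which are released from the retinoblastoma protein when cyclin-dependent kinases become active, and activated CD8 T cells are known for dividing fast.

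Libraries held 20838894 to 31098648 expected counts, and levels below are in CPM, expected counts scaled to a common library size with TMM (trimmed mean of M-values) factors, as in the fits. The summed counts of the 38 genes were 0.477% to 0.483% of the total in genipin libraries, 0.284% to 0.288% in genipin+NAC libraries, 0.402% to 0.404% in NAC libraries and 0.339% to 0.341% in vehicle libraries. Replicate 1 of genipin+NAC stood apart from the other two of its group: over all genes tested, its counts differed from theirs with a chi-square per degree of freedom of 7.01 and 8.13, against 2.08 to 2.96 for every other pair of replicates. Over the 38 genes alone the same 2 values were 4.97 and 5.50, and their median coefficient of variation was 5.25% in genipin+NAC libraries, 2.19% in genipin, 2.14% in NAC and 2.27% in vehicle libraries. Results that this library decides are given below with and without it. Exons of 14 of the 38 genes overlap another gene on the opposite strand, and whether counting used the strand is not given in the sources used here. All 8 CD8 T cell markers checked, among them Cd3e, Cd8a and Lck, passed the filter, with a summed level of 3269 to 3299 CPM in genipin, 4032 to 4086 in genipin+NAC, 3416 to 3491 in NAC and 3297 to 3387 CPM in vehicle libraries.

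Markers of other cells also moved with the groups. The summed level of 6 B cell markers was 59.1 to 63.9 CPM with genipin, 158.5 to 158.7 CPM with genipin+NAC, 191 to 205 CPM with NAC and 41.1 to 42.7 CPM with vehicle. Nearly all of it was Ighm and Cd79b, and the defining genes Cd79a, Ms4a1 and Pax5 averaged between 0 and 0.199 CPM in every group. The 5 NK cell markers summed to 414 to 424 CPM with genipin, 290.4 to 327 CPM with genipin+NAC, 143 to 147 CPM with NAC and 252 to 269 CPM with vehicle, most of it Klrd1 and Eomes, and Ncr1 averaged 2.10 CPM with genipin, 0.147 CPM with genipin+NAC, 0 with NAC and 0.0657 CPM with vehicle. The 7 myeloid markers summed to 26.25 to 31.5 CPM with genipin, 68.2 to 74.9 CPM with genipin+NAC, 18.4 to 21.25 CPM with NAC and 22.6 to 25.5 CPM with vehicle. Most of that was Itgam and Itgax, while Csf1r and Adgre1 averaged at most 0.0381 CPM in any group. The 7 granulocyte and mast cell markers summed to 62.8 to 63.9 CPM with genipin, 251 to 256 CPM with genipin+NAC, 58.0 to 60.1 CPM with NAC and 27.6 to 30.9 CPM with vehicle, with Kit as the largest part and S100a8 and Elane at 0 in every library. The 3 CD4 T cell markers ran from 38.6 to 42.2 CPM with genipin, 51.9 to 61.6 CPM with genipin+NAC, 64.7 to 69.5 CPM with NAC and 39.1 to 43.2 CPM with vehicle, nearly all of it Zbtb7b. Members of the same list did not all move alike (log2 fold changes against vehicle, adjusted p under 0.05 by edgeR). With genipin+NAC, Kit (3.95) and Cpa3 (1.10) rose while Mcpt8 fell (-2.37). With NAC, Kit rose (1.83) while Mcpt8 (-4.12) and Cpa3 (-0.88) fell. Among the 4 myeloid markers tested, Flt3 fell with genipin+NAC (-4.13) and 3 rose. Of the 5 NK cell markers, Fcer1g fell with genipin+NAC (-1.24) and 3 rose. What part such cells have in the results below was not tested, and in bulk RNA fewer cells of a type and less RNA per cell cannot be told apart.

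Genipin-treated cells had more of nearly the whole replication set. Against vehicle, 34 of the 38 transcripts rose and 2 fell, Pold1 and Rfc3, at an adjusted p under 0.05 (edgeR quasi-likelihood F test, Benjamini-Hochberg over all genes). In this comparison 61.0% of all genes tested were called, 29.9% as higher and 31.0% as lower. The median log2 fold change of the 38 was 0.44, against -0.01 over all genes tested, with Tyms at the top (1.00) and Rfc3 at the bottom (-0.25). In 11 of them the rise was at least 1.5-fold, a call that 7.52% of all genes met. The CPM values of the groups did not overlap in 36 of the 38, where the share over all genes was 66.7%.

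In genipin+NAC cells nearly the whole set was lower than in vehicle cells. Of the 38, 36 fell, E2f1 rose and Pole was not called, beside 57.4% of all genes called, 28.5% as higher and 28.9% as lower. The median log2 fold change was -0.33, against 0.005 over all genes, and the values of the groups did not overlap in 37 of the 38, where the share over all genes was 60.7%. The falls were small: 3 reached 1.5-fold, those of Orc1, Tyms and Ccne1, a call that 6.04% of all genes met.

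With NAC alone the set divided. Against vehicle, 21 transcripts rose, 8 fell and 9 were not called, beside 59.7% of all genes called, 29.6% as higher and 30.0% as lower. The median log2 fold change was 0.14, against -0.01 over all genes, and no rise reached 1.5-fold, where 11.1% of all genes did, while 1 fall did, that of Tyms, where 8.13% of all genes did. This division depended on the scaling: without normalization factors the median over all genes moved to 0.11, and 26 of the 38 rose and 4 fell. Those 4 were Pola1, Tyms, Tk1 and Dut. Under that setting 67.5% of all genes called were higher, against 49.7% with factors, so the shift was not particular to the 38. The deposited TPM values, which carry no such factors, had higher means with NAC than with vehicle for 34 of the 38. The share of all genes with a higher mean TPM was not counted. Relative to the median of all genes, the median of the 38 was higher by 0.15 both with and without the factors. Leaving out the factors shifts all genes nearly alike, so this difference could not change and is no check of the result. The values of the groups did not overlap in 31 of the 38, where the share over all genes was 65.9%. These 3 comparisons share the vehicle libraries.

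**Figure D1:**
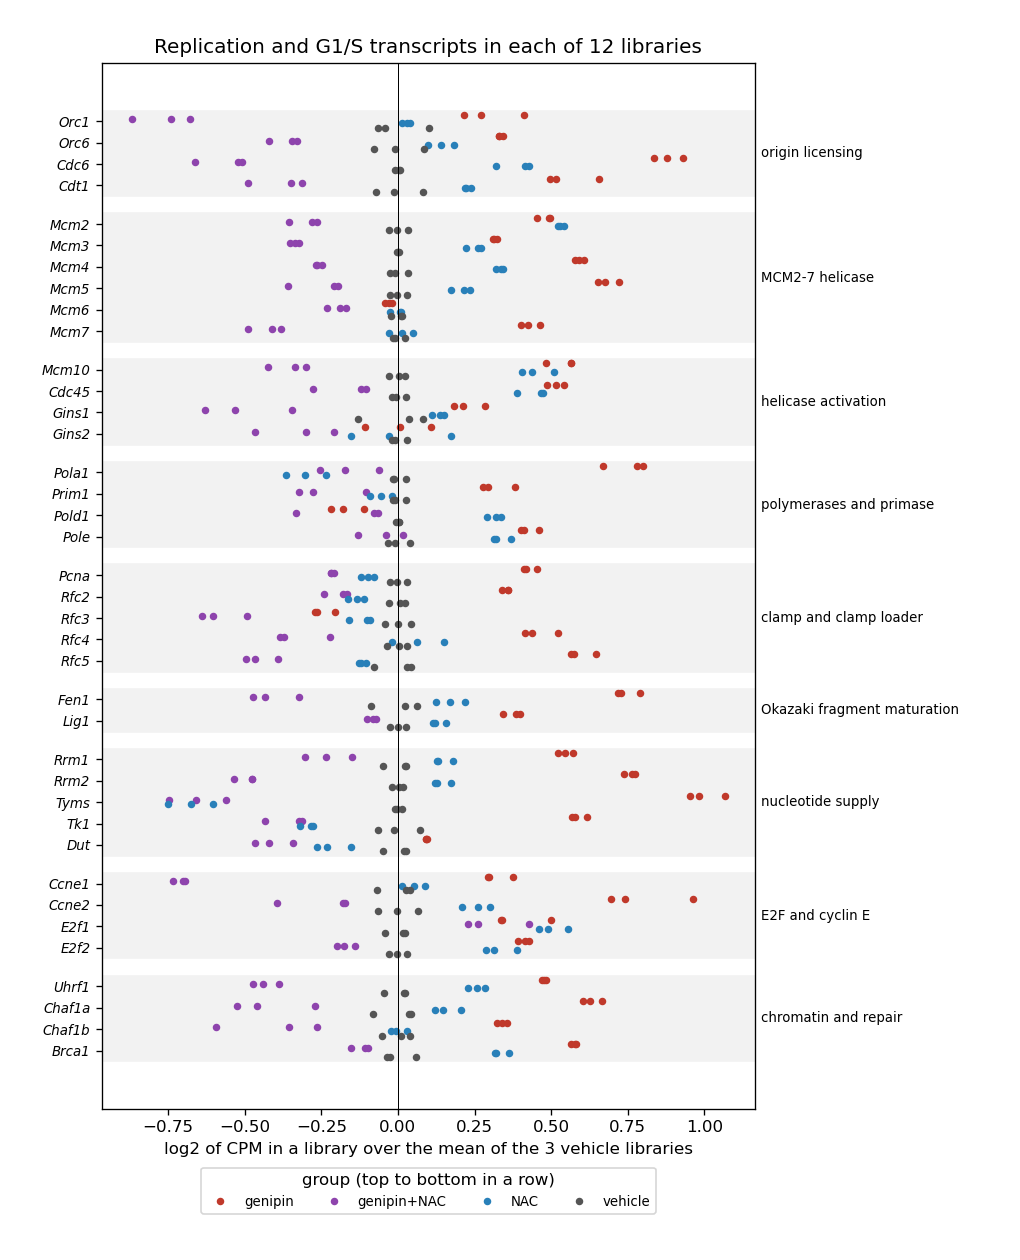
Each point is 1 library: the log2 ratio of its CPM to the mean of the 3 vehicle libraries (horizontal axis), for the 38 genes (rows, by function), with genipin, genipin+NAC, NAC and vehicle drawn from top to bottom within a row. Genipin points lie to the right of vehicle in most rows and genipin+NAC points to the left, while NAC points are to the right for most helicase genes and to the left for Tyms, Tk1, Dut and Pola1.

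Taken gene by gene over these 3 comparisons, the most common pattern, in 18 transcripts, was a rise with genipin, a rise with NAC and a fall with genipin+NAC. In 7 others, Pola1, Pcna, Rfc2, Rfc5, Tyms, Tk1 and Dut, genipin gave a rise while NAC and genipin+NAC both gave a fall. For Pcna, Rfc2 and Rfc5 the NAC change was 0.02, -0.02 and 0.003, none of them called, without normalization factors. In a further 7, Orc1, Mcm7, Gins1, Prim1, Rfc4, Ccne1 and Chaf1b, the NAC change was not called. Without normalization factors 4 of these were called higher with NAC, Mcm7 (0.13, adjusted p = 0.00156), Gins1 (0.25, adjusted p = 0.0171), Rfc4 (0.19, adjusted p = 0.0118) and Ccne1 (0.17, adjusted p = 0.00596). By group means, 31 of the 38 were highest with genipin and lowest with genipin+NAC. The share of all genes with this order, or with the patterns above, was not counted. Length-corrected levels, in TPM as deposited and averaged over all 12 libraries, were highest for Pcna (269.7 TPM), Mcm3 (138 TPM) and Rrm2 (134 TPM) and lowest for Ccne2 (6.34 TPM).

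The promoters of the members were searched for words of the E2F site. Many genes of this kind are transcribed by E2F factors, so the share with a word does not bear on the response to treatment. RefSeq windows on GRCm38.p6, the 250 bases before each annotated start, were found for 32 of the 38, and none was listed for Ccne2, Gins1, Gins2, Mcm4, Pole and Rfc2. The words were TTTGGCGC, TTTGCCGC, TTTCGCGC and TTTCCCGC, read on both strands. Only these exact words were counted, so a gene without one may still hold a variant of the site. At least 1 of them stood in the window of 8 of the 32 (25%), namely Cdc6, Mcm5, Mcm6, Mcm7, Orc1, Pola1, Rfc3 and Uhrf1, and in 2.16% of the 27025 genes with a window. For Cdc6, Mcm7, Orc1 and Rfc3 the window that holds a word overlaps annotated exons. The word CCAAT, again on both strands, stood in 59.4% of the 32 and 37.5% of all genes, GGGCGG in 68.8% and 35.4%, and TTTGAA in 12.5% and 18.3%. Among the 17492 protein-coding genes with a window the shares were 2.72% for the E2F words, 39.5% for CCAAT, 45.8% for GGGCGG and 16.9% for TTTGAA. The 3 windows below are shown because their genes answered genipin and NAC in different ways. Mcm5 had log2 fold changes of 0.68 with genipin and 0.21 with NAC, Mcm6 of -0.03 and -0.0027, neither called, and Pola1 of 0.75 and -0.30. Capitals mark the E2F words, and no annotated exon overlaps these windows. They lie at chr8:75109259-75109508 on the plus strand, chr1:128359706-128359955 on the minus strand and chrX:93632156-93632405 on the minus strand.
Mcm5: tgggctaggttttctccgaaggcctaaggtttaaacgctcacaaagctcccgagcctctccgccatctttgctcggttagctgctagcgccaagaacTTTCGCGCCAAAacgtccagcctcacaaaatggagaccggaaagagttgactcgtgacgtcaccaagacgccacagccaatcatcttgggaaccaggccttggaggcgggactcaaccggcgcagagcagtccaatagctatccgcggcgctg
Mcm6: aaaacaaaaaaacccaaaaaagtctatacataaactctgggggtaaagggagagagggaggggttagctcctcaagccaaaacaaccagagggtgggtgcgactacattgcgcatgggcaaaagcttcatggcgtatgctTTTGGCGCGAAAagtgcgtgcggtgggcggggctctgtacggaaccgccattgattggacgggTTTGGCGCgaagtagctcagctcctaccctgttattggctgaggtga
Pola1: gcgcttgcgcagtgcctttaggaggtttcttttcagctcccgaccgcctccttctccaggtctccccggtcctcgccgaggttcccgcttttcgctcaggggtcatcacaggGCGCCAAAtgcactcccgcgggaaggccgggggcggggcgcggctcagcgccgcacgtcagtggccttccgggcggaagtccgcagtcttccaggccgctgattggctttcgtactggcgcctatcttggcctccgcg
The Mcm5 window holds 2 overlapping words, the Mcm6 window 2 overlapping words and 1 more, and the Pola1 window 1. The median log2 fold changes of the 8 genes with a word and the 24 without were 0.45 and 0.47 with genipin, -0.43 and -0.35 with genipin+NAC, and 0.02 and 0.14 with NAC, each against vehicle. A match of letters is a description and not a binding site.

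**Figure D2:**
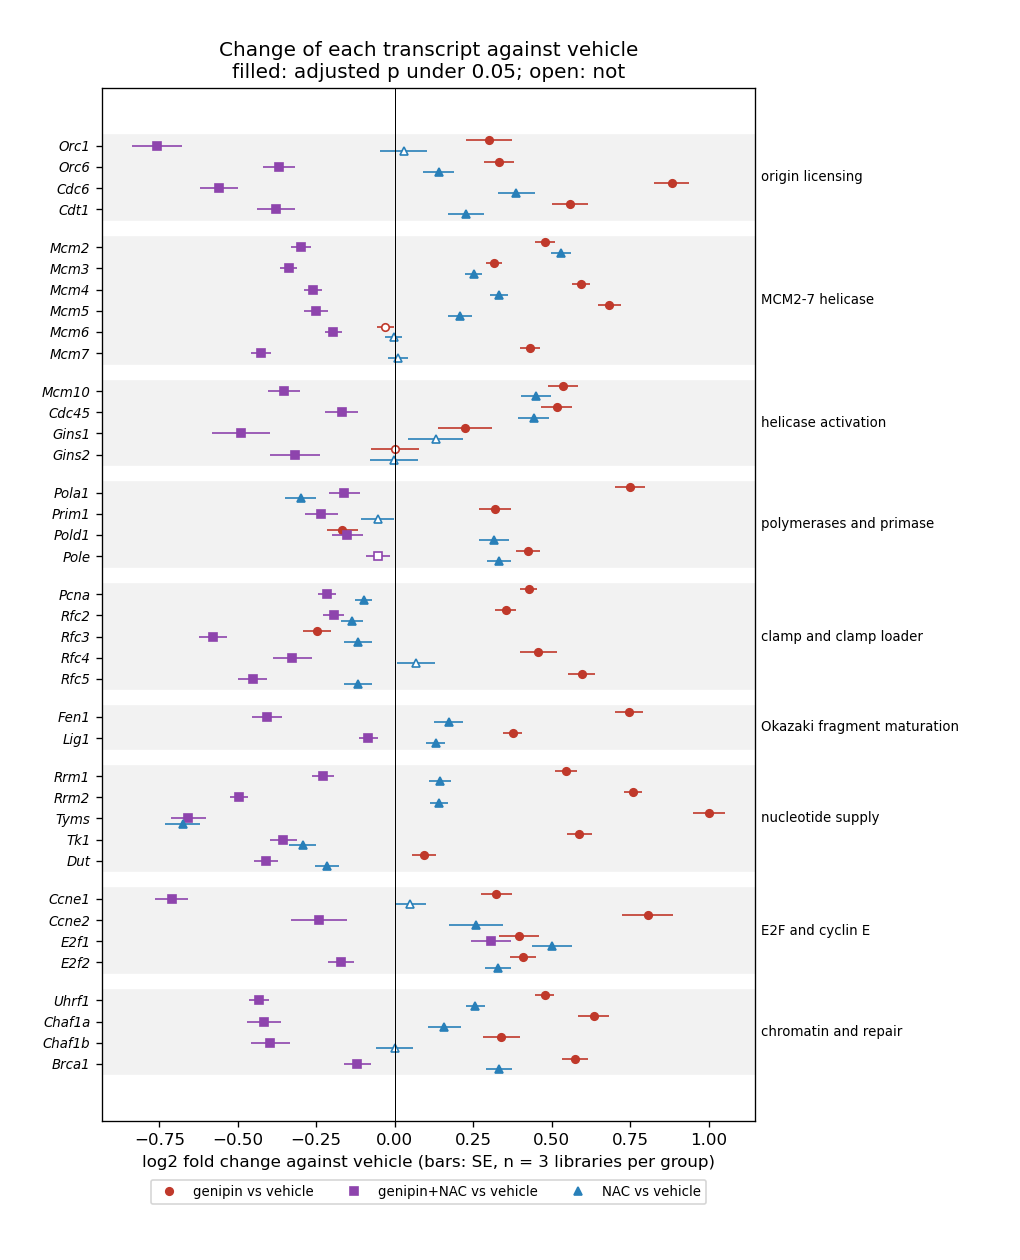
Points are log2 fold changes against vehicle (horizontal axis) for the 38 genes (rows), with lines of 1 SE, n = 3 libraries per group. Filled symbols passed an adjusted p under 0.05; genipin values run from -0.25 to 1.00, genipin+NAC values from -0.76 to 0.31 and NAC values from -0.68 to 0.53, and the NAC changes of Pcna, Rfc3, Rfc5 and Mcm6 change sign without normalization factors.

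All 4 origin licensing transcripts rose with genipin and fell with genipin+NAC, and 3 of them rose with NAC. Their summed level was 168 ± 4.22 CPM with genipin, 85.0 ± 1.88 CPM with genipin+NAC, 134 ± 2.22 CPM with NAC and 116 ± 1.66 CPM with vehicle (SD, n = 3 each). Cdc6, the loading factor that brings the helicase to the origin complex, had 43.7, 42.5 and 45.3 CPM with genipin, 15.03, 16.6 and 16.7 CPM with genipin+NAC, 31.97, 31.7 and 29.7 CPM with NAC, and 23.6, 23.8 and 23.9 CPM with vehicle. No group overlapped another, and genipin+NAC libraries were the lowest. Its log2 fold change against vehicle was 0.88 (SE 0.06, edgeR adjusted p = 1.40e-11) with genipin, -0.56 (SE 0.06) with genipin+NAC and 0.39 (SE 0.06) with NAC. Orc1, the largest subunit of the origin recognition complex, had 16.7, 19.1 and 17.4 CPM with genipin, 8.999, 7.89 and 8.63 CPM with genipin+NAC, 14.7, 14.8 and 14.5 CPM with NAC, and 15.5, 13.8 and 14 CPM with vehicle. Genipin libraries were above and genipin+NAC libraries below all others, while NAC libraries lay within the vehicle range. The fall with genipin+NAC was -0.76 (SE 0.08, edgeR adjusted p = 5.47e-08), the rise with genipin was 0.30 (SE 0.07), and the NAC change of 0.03 was not called. Orc6, the smallest subunit, had 52.7, 53.3 and 52.7 CPM with genipin, 33.02, 33.4 and 31.3 CPM with genipin+NAC, 44.9, 47.7 and 46.3 CPM with NAC, and 41.6, 39.8 and 44.5 CPM with vehicle. The NAC libraries lay only just above the highest vehicle library, and the NAC change of 0.14 (SE 0.05, edgeR adjusted p = 0.0175) was lost when vehicle replicate 2 or NAC replicate 2 was left out (adjusted p = 0.0995 and 0.0777). Cdt1, which loads the helicase together with Cdc6, changed by 0.56 (SE 0.06) with genipin, -0.38 (SE 0.06) with genipin+NAC and 0.23 (SE 0.06) with NAC, all called.

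Of the 6 subunits of the MCM2-7 helicase ring, 5 rose with genipin, all 6 fell with genipin+NAC, and 4 rose with NAC. The ring summed to 1604 ± 6.03 CPM with genipin, 1015 ± 16.5 CPM with genipin+NAC, 1410 ± 3.51 CPM with NAC and 1238 ± 3.00 CPM with vehicle. Mcm3, the subunit with the highest TPM, had 304, 303 and 306 CPM with genipin, 191, 195 and 193 CPM with genipin+NAC, 285, 292 and 294 CPM with NAC, and 245, 244 and 244 CPM with vehicle. The 4 groups did not overlap, and the changes against vehicle were 0.32 (SE 0.03, edgeR adjusted p = 1.32e-09) with genipin, -0.34 (SE 0.03) with genipin+NAC and 0.25 (SE 0.03) with NAC. Mcm5 had 298, 307 and 293 CPM with genipin, 145, 161 and 163 CPM with genipin+NAC, 219, 216 and 210.2 CPM with NAC, and 186, 190.2 and 183 CPM with vehicle. No 2 groups overlapped. It had the largest genipin rise of the ring, 0.68 (SE 0.04, edgeR adjusted p = 9.55e-13), against -0.25 (SE 0.04) with genipin+NAC and 0.21 (SE 0.04) with NAC. Mcm2 had 171, 176 and 176 CPM with genipin, 97.6, 103 and 104 CPM with genipin+NAC, 182, 180.2 and 179 CPM with NAC, and 122, 128 and 124 CPM with vehicle. NAC libraries were here the highest of all, above the genipin libraries, with a change of 0.53 (SE 0.03, edgeR adjusted p = 6.23e-12) with NAC against vehicle, 0.48 (SE 0.03) with genipin and -0.30 (SE 0.03) with genipin+NAC.

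Mcm6 differed from its partners. It had 316, 314 and 311 CPM with genipin, 285, 273 and 281 CPM with genipin+NAC, 322, 322 and 315 CPM with NAC, and 322, 315 and 323 CPM with vehicle, so that genipin, NAC and vehicle libraries overlapped and only genipin+NAC libraries lay apart, below the rest. The genipin change was -0.03 (SE 0.03, edgeR adjusted p = 0.356) and the NAC change -0.0027 (SE 0.03, edgeR adjusted p = 0.941), though without normalization factors the NAC change was 0.12 (adjusted p = 0.000914). The genipin+NAC change was -0.20 (SE 0.03, edgeR adjusted p = 2.78e-06). The remaining subunits followed the ring: Mcm4 changed by 0.59 (SE 0.03) with genipin, -0.26 (SE 0.03) with genipin+NAC and 0.33 (SE 0.03) with NAC. Mcm7 changed by 0.43 (SE 0.03) with genipin and -0.43 (SE 0.03) with genipin+NAC, while its NAC change of 0.01 was not called. Mcm7 hosts Mir25 and Mir93 on its own strand, and its expected counts were split between genes in all 12 libraries.

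Among the 4 helicase activation genes, 3 rose with genipin, all 4 fell with genipin+NAC, and 2 rose with NAC. Mcm10, which helps to bring polymerase alpha to the opened origin, had 53.4, 53.4 and 50.5 CPM with genipin, 26.9, 29.3 and 28.6 CPM with genipin+NAC, 51.5, 47.9 and 48.9 CPM with NAC, and 35.4, 36.7 and 36.2 CPM with vehicle. Genipin and NAC libraries overlapped each other and were both above vehicle, with genipin+NAC libraries below. The changes were 0.54 (SE 0.05, edgeR adjusted p = 4.46e-09) with genipin, -0.35 (SE 0.05) with genipin+NAC and 0.45 (SE 0.05) with NAC. Gins2, a subunit of the GINS complex, had 32.4, 34.7 and 29.9 CPM with genipin, 23.3, 26.1 and 27.9 CPM with genipin+NAC, 36.3, 31.5 and 28.98 CPM with NAC, and 31.98, 31.8 and 32.9 CPM with vehicle. The 3 NAC libraries spread from 29.0 to 36.3 CPM and overlapped genipin and vehicle libraries, and only genipin+NAC differed, by -0.32 (SE 0.08, edgeR adjusted p = 0.00154). Cdc45, the factor that completes the active helicase, changed by 0.52 (SE 0.05) with genipin, -0.17 (SE 0.05) with genipin+NAC and 0.44 (SE 0.05) with NAC. Its fall with genipin+NAC was lost without replicate 3 of that group (-0.11, adjusted p = 0.0848). Gins1 changed by 0.22 (SE 0.09, edgeR adjusted p = 0.0308) with genipin, a call lost without vehicle replicate 2 (adjusted p = 0.142) or genipin replicate 1 or 2 (adjusted p = 0.0546 and 0.0954), and by -0.49 (SE 0.09) with genipin+NAC, while its NAC change of 0.13 was not called.

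The polymerase and primase genes did not move as one: with genipin 3 rose and Pold1 fell, with genipin+NAC 3 fell and Pole was not called, and with NAC 2 rose, Pola1 fell and Prim1 was not called. Pola1, the catalytic subunit of polymerase alpha, had 106, 107 and 98.1 CPM with genipin, 59.1, 51.7 and 54.8 CPM with genipin+NAC, 50, 52.5 and 47.9 CPM with NAC, and 62.9, 61.2 and 61.1 CPM with vehicle. Genipin libraries were far above all others, and NAC libraries were below vehicle and overlapped genipin+NAC libraries. Its changes were 0.75 (SE 0.05, edgeR adjusted p = 1.31e-11) with genipin, -0.16 (SE 0.05) with genipin+NAC and -0.30 (SE 0.05, edgeR adjusted p = 2.64e-05) with NAC. The fall with genipin+NAC was lost without replicate 2 of that group (-0.12, adjusted p = 0.0617). Pold1, the catalytic subunit of polymerase delta, had 109, 106 and 114 CPM with genipin, 97.6, 116 and 118 CPM with genipin+NAC, 154, 155 and 150.4 CPM with NAC, and 123, 122 and 123 CPM with vehicle. NAC libraries stood above vehicle and genipin libraries below, and genipin+NAC libraries overlapped genipin libraries, with replicate 1 as the lowest of all. Pold1 changed by -0.17 (SE 0.05, edgeR adjusted p = 0.00587) with genipin, -0.15 (SE 0.05, edgeR adjusted p = 0.0124) with genipin+NAC and 0.32 (SE 0.05, edgeR adjusted p = 9.12e-06) with NAC. The genipin fall was lost without normalization factors (-0.10, adjusted p = 0.0694) and with effective length offsets (adjusted p = 0.103), and the log2 ratio of mean TPM was -0.02. Without replicate 1, the genipin+NAC change became -0.07 (adjusted p = 0.0669), and genipin+NAC exceeded genipin by 0.10 (adjusted p = 0.0118). Pole, the catalytic subunit of polymerase epsilon, had 112, 108 and 108 CPM with genipin, 79.3, 82.6 and 74.5 CPM with genipin+NAC, 105, 101 and 102 CPM with NAC, and 79.8, 80.96 and 83.9 CPM with vehicle. Genipin and NAC libraries were above vehicle and genipin+NAC libraries overlapped vehicle: the changes were 0.42 (SE 0.04, edgeR adjusted p = 4.92e-09) with genipin, -0.05 (SE 0.04, edgeR adjusted p = 0.262) with genipin+NAC and 0.33 (SE 0.04) with NAC. Prim1, the catalytic subunit of primase, changed by 0.32 (SE 0.05) with genipin and -0.23 (SE 0.05) with genipin+NAC, while its NAC change of -0.05 was not called.

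In the clamp and its loader, 4 of 5 transcripts rose with genipin, all 5 fell with genipin+NAC, and 4 fell with NAC, although without normalization factors none of those 4 was called and only Rfc2 (-0.02) kept a negative sign. Pcna, the sliding clamp, had 385, 395 and 384 CPM with genipin, 248, 249 and 248 CPM with genipin+NAC, 269, 273 and 265 CPM with NAC, and 295, 288 and 283 CPM with vehicle. The order was genipin, vehicle, NAC and genipin+NAC from high to low, with no overlap. The changes were 0.43 (SE 0.03, edgeR adjusted p = 1.52e-11) with genipin, -0.22 (SE 0.03) with genipin+NAC and -0.10 (SE 0.03) with NAC. Mean TPM as deposited gave the other order for NAC, 259.7 TPM against 243 TPM with vehicle, and the expected counts of Pcna were split with other genes in all 12 libraries. Rfc5, a small subunit of the loader, had 72.5, 76.8 and 73 CPM with genipin, 35.4, 37.4 and 34.7 CPM with genipin+NAC, 44.9, 45.03 and 45.6 CPM with NAC, and 46.4, 50.5 and 50.01 CPM with vehicle. Genipin libraries were the highest and genipin+NAC libraries the lowest, with changes of 0.60 (SE 0.04, edgeR adjusted p = 1.67e-10) and -0.45 (SE 0.05). The NAC change of -0.12 (SE 0.05, edgeR adjusted p = 0.0325) was lost without vehicle replicate 2 or 3 or any NAC replicate (adjusted p = 0.128, 0.124, 0.0801, 0.0737 and 0.0551).

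Rfc3 was the exception in the loader. It had 50.3, 52.7 and 50.6 CPM with genipin, 43.2, 38.97 and 39.9 CPM with genipin+NAC, 56.6, 57.04 and 54.3 CPM with NAC, and 60.7, 59.01 and 62.5 CPM with vehicle, with vehicle libraries the highest. The genipin change was a fall, -0.25 (SE 0.04, edgeR adjusted p = 6.19e-05), and the genipin+NAC change was -0.58 (SE 0.05, edgeR adjusted p = 6.06e-10). The NAC change of -0.12 (SE 0.04, edgeR adjusted p = 0.0264) was lost without vehicle replicate 1 or 3 or NAC replicate 3 (adjusted p = 0.0558, 0.129 and 0.115) and was 0.0014 without normalization factors. Rfc2 had 106, 105 and 106 CPM with genipin, 70.1, 73.8 and 73.1 CPM with genipin+NAC, 75.5, 76.7 and 73.9 CPM with NAC, and 84.1, 81.1 and 83.2 CPM with vehicle. Genipin libraries were above vehicle, and NAC and genipin+NAC libraries were below it, with changes of 0.35 (SE 0.03, edgeR adjusted p = 9.92e-09) with genipin, -0.19 (SE 0.03) with genipin+NAC and -0.14 (SE 0.03) with NAC, where the NAC change was -0.02 and not called without normalization factors. Rfc4 had 39.1, 42.1 and 39.7 CPM with genipin, 25.1, 22.5 and 22.6 CPM with genipin+NAC, 28.9, 30.6 and 32.5 CPM with NAC, and 28.6, 29.4 and 29.9 CPM with vehicle. NAC libraries overlapped vehicle, genipin libraries were above and genipin+NAC libraries below, with changes of 0.46 (SE 0.06, edgeR adjusted p = 8.31e-07) with genipin and -0.33 (SE 0.06) with genipin+NAC.

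Both genes of Okazaki fragment maturation rose with genipin and with NAC and fell with genipin+NAC. Fen1, the flap endonuclease that trims the fragments, had 104, 103 and 108 CPM with genipin, 45.1, 50.1 and 46.3 CPM with genipin+NAC, 72.8, 70.4 and 68.3 CPM with NAC, and 63.6, 65.3 and 58.8 CPM with vehicle. The 4 groups did not overlap, and the changes were 0.75 (SE 0.04, edgeR adjusted p = 5.19e-12) with genipin, -0.41 (SE 0.05) with genipin+NAC and 0.17 (SE 0.05) with NAC. Lig1, the ligase that joins the fragments, had 160.5, 155 and 159 CPM with genipin, 116, 114 and 115 CPM with genipin+NAC, 136, 133 and 132 CPM with NAC, and 119.6, 122 and 124 CPM with vehicle. Genipin+NAC libraries lay just below vehicle. The change of -0.08 (SE 0.03, edgeR adjusted p = 0.0236) was lost without vehicle replicate 2 or 3 (adjusted p = 0.0561 and 0.105) or genipin+NAC replicate 2 (adjusted p = 0.0765). The rises with genipin, 0.38 (SE 0.03), and NAC, 0.13 (SE 0.03), were called under every alternative run.

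All 5 nucleotide supply genes rose with genipin and fell with genipin+NAC, and NAC divided them into ribonucleotide reductase, which rose, and the 3 enzymes of thymidine nucleotides, which fell. By mean TPM as deposited, the log2 ratio of NAC to vehicle was -0.56 for Tyms but only -0.03 for Tk1 and -0.0034 for Dut. Tyms, thymidylate synthase, had 75.9, 82.2 and 77.4 CPM with genipin, 24.8, 26.6 and 23.3 CPM with genipin+NAC, 24.5, 23.3 and 25.8 CPM with NAC, and 39.5, 38.9 and 39.1 CPM with vehicle. Genipin libraries were at least 75.9 CPM and vehicle libraries at most 39.5 CPM, and NAC and genipin+NAC libraries overlapped below both. Its changes were 1.00 (SE 0.05, edgeR adjusted p = 4.16e-13) with genipin, the largest of the 38, -0.66 (SE 0.06, edgeR adjusted p = 2.26e-09) with genipin+NAC and -0.68 (SE 0.06, edgeR adjusted p = 1.42e-09) with NAC. Rrm2, the regulated small subunit of ribonucleotide reductase, had 338, 340.5 and 332 CPM with genipin, 137, 143 and 143 CPM with genipin+NAC, 217, 217 and 224 CPM with NAC, and 201, 199 and 197 CPM with vehicle. Groups were apart and NAC libraries were above vehicle, with changes of 0.76 (SE 0.03, edgeR adjusted p = 2.69e-15) with genipin, -0.50 (SE 0.03) with genipin+NAC and 0.14 (SE 0.03) with NAC. Rrm1, the large subunit, had 339, 333 and 328 CPM with genipin, 206, 194 and 185 CPM with genipin+NAC, 259, 249.7 and 249 CPM with NAC, and 232, 220.5 and 232 CPM with vehicle. Its groups stood in the same order as those of Rrm2, with changes of 0.55 (SE 0.04, edgeR adjusted p = 1.68e-11) with genipin, -0.23 (SE 0.04) with genipin+NAC and 0.14 (SE 0.04) with NAC.

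Dut, the enzyme that removes dUTP and so makes the precursor of thymidylate, had 118, 118 and 118 CPM with genipin, 86.9, 82.4 and 79.7 CPM with genipin+NAC, 91.6, 93.8 and 98.96 CPM with NAC, and 112, 112 and 106 CPM with vehicle. Groups did not overlap, but the genipin libraries were only just above vehicle, and the genipin rise of 0.09 (SE 0.04, edgeR adjusted p = 0.0360) was lost without vehicle replicate 3 (adjusted p = 0.159) or any 1 of the genipin libraries (adjusted p = 0.0692, 0.0733 and 0.0646). Its falls were -0.41 (SE 0.04) with genipin+NAC and -0.22 (SE 0.04) with NAC. Tk1, thymidine kinase of the salvage pathway, changed by 0.59 (SE 0.04) with genipin, -0.35 (SE 0.04) with genipin+NAC and -0.29 (SE 0.04) with NAC. Under NAC, genipin made no called difference to Tyms (0.02, SE 0.06, edgeR adjusted p = 0.814) or Tk1 (-0.06, SE 0.04, edgeR adjusted p = 0.256), each with genipin+NAC against NAC, though without normalization factors Tk1 was called lower (-0.14, adjusted p = 0.00969).

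The 4 E2F and cyclin E genes all rose with genipin, but E2f1 kept a rise with both compounds. E2f1, an activating E2F factor, had 30.6, 30.5 and 34.2 CPM with genipin, 28.3, 32.5 and 28.99 CPM with genipin+NAC, 35.5, 33.9 and 33.2 CPM with NAC, and 23.4, 24.6 and 24.5 CPM with vehicle. All libraries of the 3 treated groups were above all vehicle libraries, and genipin+NAC libraries overlapped genipin libraries. E2f1 changed by 0.40 (SE 0.06, edgeR adjusted p = 1.81e-05) with genipin, 0.31 (SE 0.06, edgeR adjusted p = 0.000358) with genipin+NAC and 0.50 (SE 0.06, edgeR adjusted p = 8.39e-07) with NAC. Ccne1, the E-type cyclin that drives Cdk2 at G1/S, had 46.2, 46.1 and 48.8 CPM with genipin, 22.6, 23.2 and 23.1 CPM with genipin+NAC, 39.97, 37.97 and 38.95 CPM with NAC, and 35.8, 38.3 and 38.6 CPM with vehicle. Genipin+NAC libraries were far below the others and NAC libraries overlapped vehicle, with changes of 0.32 (SE 0.05, edgeR adjusted p = 8.80e-06) with genipin, -0.71 (SE 0.05, edgeR adjusted p = 2.45e-10) with genipin+NAC and 0.05 with NAC, which was not called. Ccne2, the second E-type cyclin, had 21.1, 18.1 and 17.5 CPM with genipin, 9.60, 8.23 and 9.54 CPM with genipin+NAC, 12.97, 12.5 and 13.3 CPM with NAC, and 10.3, 11.3 and 10.8 CPM with vehicle. Each group was apart from the others. Its rise with genipin was 0.81 (SE 0.08, edgeR adjusted p = 3.04e-08). Its fall with genipin+NAC, -0.24 (SE 0.09, edgeR adjusted p = 0.0267), was lost without vehicle replicate 2 or 3 (adjusted p = 0.0917 and 0.0590) or genipin+NAC replicate 2 (adjusted p = 0.134). Its NAC rise, 0.26 (SE 0.09, edgeR adjusted p = 0.0140), was lost without vehicle replicate 1 or NAC replicate 3 (adjusted p = 0.0530 and 0.0520). E2f2, another activating factor, changed by 0.41 (SE 0.04) with genipin, -0.17 (SE 0.04) with genipin+NAC and 0.33 (SE 0.04) with NAC.

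The 4 chromatin and repair genes rose with genipin and fell with genipin+NAC, and 3 rose with NAC. Uhrf1, which brings the maintenance methyltransferase to newly copied DNA, had 225, 224 and 226 CPM with genipin, 117, 119 and 124 CPM with genipin+NAC, 197, 189 and 194 CPM with NAC, and 164, 164 and 157 CPM with vehicle. The 4 groups did not overlap, with changes of 0.48 (SE 0.03, edgeR adjusted p = 1.99e-11) with genipin, -0.43 (SE 0.03) with genipin+NAC and 0.26 (SE 0.03) with NAC. Chaf1a, the large subunit of chromatin assembly factor 1, had 86.7, 83.1 and 84.3 CPM with genipin, 37.9, 45.2 and 39.7 CPM with genipin+NAC, 60.5, 62.9 and 59.4 CPM with NAC, and 56.2, 51.6 and 55.98 CPM with vehicle. NAC libraries were above vehicle, but the NAC change of 0.16 (SE 0.05, edgeR adjusted p = 0.0131) was lost without vehicle replicate 2 or NAC replicate 2 (adjusted p = 0.0813 and 0.0659). Its other changes were 0.63 (SE 0.05) with genipin and -0.42 (SE 0.05) with genipin+NAC. Chaf1b, its middle subunit, had 51.4, 50.7 and 51.9 CPM with genipin, 26.9, 33.8 and 31.7 CPM with genipin+NAC, 40.4, 39.9 and 41.4 CPM with NAC, and 40.8, 39.1 and 41.7 CPM with vehicle. NAC and vehicle libraries overlapped, and replicate 1 of genipin+NAC was the lowest of all, with changes of 0.34 (SE 0.06, edgeR adjusted p = 4.08e-05) with genipin and -0.40 (SE 0.06) with genipin+NAC. Brca1, which acts in homologous recombination at damaged forks, had 63.6, 63.4 and 62.9 CPM with genipin, 39.4, 38.2 and 39.7 CPM with genipin+NAC, 53.1, 52.9 and 54.6 CPM with NAC, and 41.4, 41.7 and 44.3 CPM with vehicle. Groups did not overlap, with genipin+NAC libraries just below vehicle. Its changes were 0.57 (SE 0.04, edgeR adjusted p = 1.27e-10) with genipin, -0.12 (SE 0.04, edgeR adjusted p = 0.0223) with genipin+NAC and 0.33 (SE 0.04) with NAC. The fall with genipin+NAC was lost without vehicle replicate 3 or genipin+NAC replicate 2 (adjusted p = 0.143 and 0.0893).

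**Figure D3:**
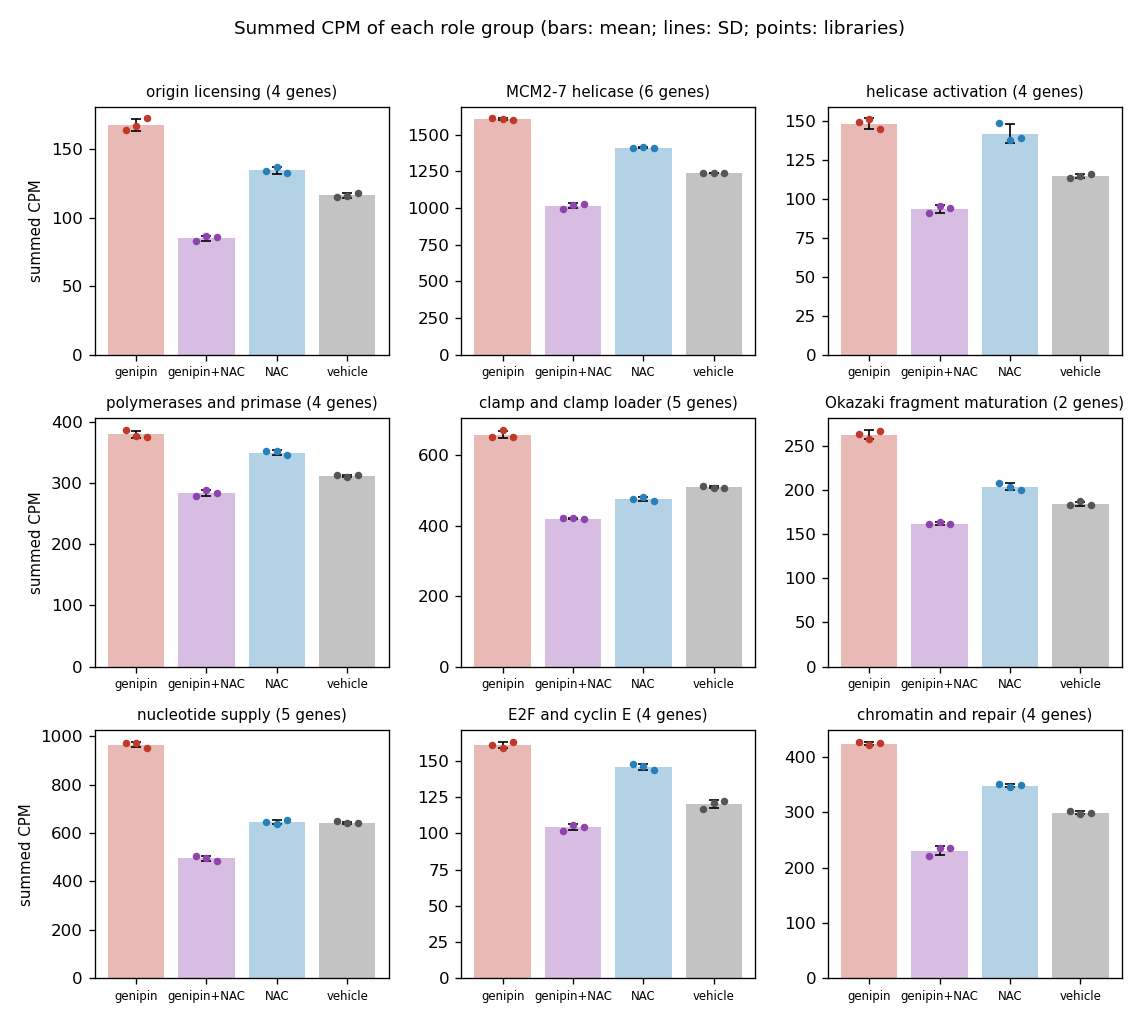
Bars are the mean summed CPM (vertical axis, from 0) of the genes in each of the 9 groups by function, with lines of 1 SD and points for the 3 libraries, for genipin, genipin+NAC, NAC and vehicle from left to right. Genipin bars are the highest and genipin+NAC bars the lowest in every panel; nucleotide supply is at 965 CPM with genipin, 495 CPM with genipin+NAC, 645 CPM with NAC and 642 CPM with vehicle.

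Cells given NAC together with genipin had less of nearly all replication transcripts than cells given genipin alone. With genipin+NAC against genipin, 36 of the 38 fell and Pold1 and E2f1 were not called, beside 69.3% of all genes called, 34.3% as lower. The median was -0.78, 27 of the falls reached 1.5-fold, where 11.1% of all genes did, and the values did not overlap in 36 of the 38, where the share over all genes was 70.3%. The deepest were Tyms (-1.66, SE 0.05, edgeR adjusted p = 8.48e-17), Cdc6 (-1.44, SE 0.06, edgeR adjusted p = 4.07e-15), Rrm2 (-1.25, SE 0.03, edgeR adjusted p = 3.43e-19) and Fen1 (-1.15, SE 0.05, edgeR adjusted p = 2.93e-15). With genipin+NAC against NAC, 34 fell, Pola1 rose, and Rfc2, Tyms and Tk1 were not called, beside 53.1% of all genes called, 26.5% as lower. The median was -0.46, and 12 of the falls reached 1.5-fold, where 6.88% of all genes did, while no rise did, where 7.28% of all genes did. The values did not overlap in 35 of the 38, where the share over all genes was 56.7%. The Pola1 rise (0.14, SE 0.05, edgeR adjusted p = 0.0257) was lost without genipin+NAC replicate 1 (0.09, adjusted p = 0.121), NAC replicate 1 or NAC replicate 3 (adjusted p = 0.0566 and 0.135), without normalization factors (0.06, adjusted p = 0.343) and with effective length offsets (0.14, adjusted p = 0.0594). Without normalization factors Rfc2 and Tk1 were called lower against NAC (-0.14 each, adjusted p = 0.00199 and 0.00969). The falls of E2f1 and Prim1 against NAC (-0.19 and -0.18) were lost without genipin+NAC replicate 3 (adjusted p = 0.0589 and 0.0629). That of E2f1 was also lost without NAC replicate 1 (adjusted p = 0.0575), while without genipin+NAC replicate 2 E2f1 was called lower than with genipin (-0.15, adjusted p = 0.04996).

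Without NAC, genipin raised 34 of these transcripts, and in the presence of NAC it lowered 34. In the test of that difference, the interaction, all 38 were called lower, beside 51.4% of all genes called, 24.0% as lower, and 30 differed by at least 1.5-fold, where 20.2% of all genes did so in either direction and 7.52% in that direction. The median difference in log2 fold change was -0.91, against 0.03 over all genes, and ran from -1.83 (SE 0.08, edgeR adjusted p = 5.20e-14) for Cdc6 to -0.16 (SE 0.04, edgeR adjusted p = 0.00124) for Mcm6. Adding the log2 change with genipin alone to that with NAC alone gave a median of 0.52 and a positive sum in 35 of the 38, while the median measured with both compounds was -0.33. For each gene the measured change minus the sum is the interaction value itself, so this is the same result in another form. The share of all genes with a positive sum was not counted. Cdc6 had the highest sum, 1.27, and a measured -0.56; Rfc3 had the lowest sum, -0.37, and a measured -0.58. The interaction call of Gins2, -0.32 (SE 0.11, edgeR adjusted p = 0.0193), was lost without genipin replicate 2 or NAC replicate 1 (adjusted p = 0.0636 and 0.0735).

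**Figure D4:**
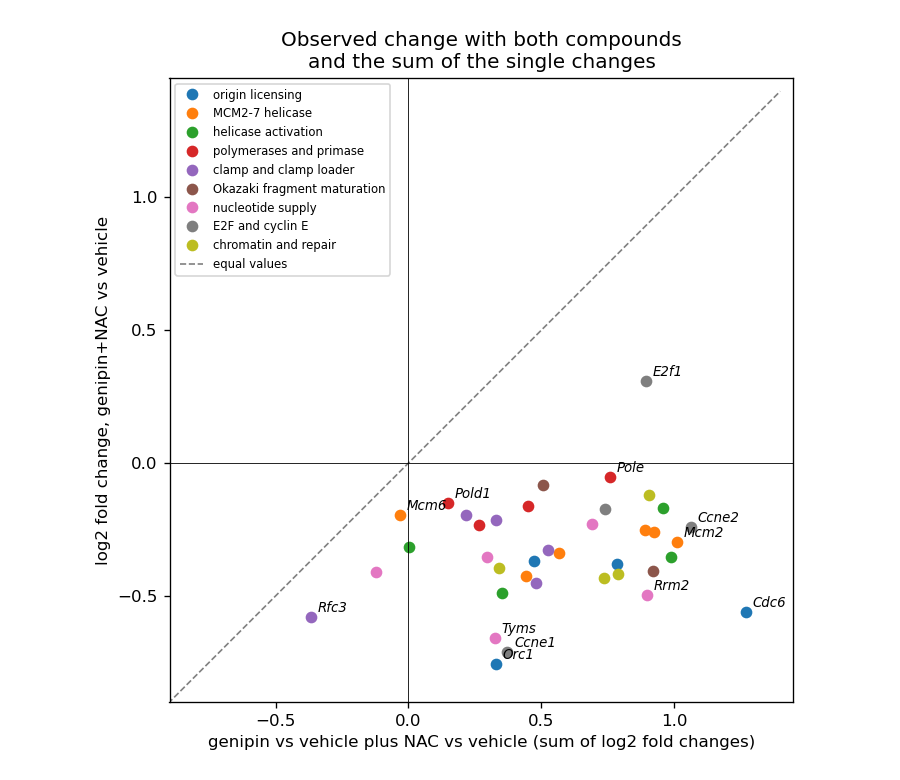
Each point is 1 of the 38 genes: the log2 fold change measured with genipin+NAC against vehicle (vertical axis) over the sum of the log2 fold changes with genipin and with NAC against vehicle (horizontal axis), coloured by function. All 38 points lie below the dashed line of equal values, and the vertical distance from it is the interaction value of the gene. E2f1 alone is above 0 on the vertical axis (0.31), and Cdc6 is farthest to the right (1.27).

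Other genes of the same processes were counted from lists that hold none of the 38. Of all genes tested, 29.9% were called higher and 31.0% lower with genipin, 28.5% and 28.9% with genipin+NAC, and 29.6% and 30.0% with NAC, which is the background for each count below. Of 33 other replisome genes, 21 rose and 4 fell with genipin (median 0.27), 4 rose and 21 fell with genipin+NAC (-0.17), and 18 rose and 4 fell with NAC (0.16). Clspn, a mediator of the replication checkpoint, changed by 1.07 (SE 0.05, edgeR adjusted p = 2.64e-13) with genipin and 0.48 (SE 0.05, edgeR adjusted p = 1.76e-07) with NAC. Ticrr, which acts in origin firing, changed by 0.85 (SE 0.05, edgeR adjusted p = 1.35e-11) with genipin and 0.52 (SE 0.05, edgeR adjusted p = 4.17e-08) with NAC. Pold4, the smallest subunit of polymerase delta, ran against the list, with 57.1 ± 2.11 CPM in genipin, 158 ± 4.41 CPM in genipin+NAC, 120.2 ± 3.99 CPM in NAC and 109 ± 0.705 CPM in vehicle libraries (SD, n = 3 each). It changed by -0.93 (SE 0.04, edgeR adjusted p = 8.14e-15) with genipin and 0.53 (SE 0.04, edgeR adjusted p = 3.08e-11) with genipin+NAC. Of 10 other nucleotide supply genes, 3 rose and 5 fell with genipin (-0.10), 4 rose and 5 fell with genipin+NAC (-0.05), and 2 rose and 2 fell with NAC (0.03), so that the share higher with genipin was near that of all genes. Nme1, a nucleoside diphosphate kinase, changed by 0.24 (SE 0.03, edgeR adjusted p = 2.20e-06) with genipin, -0.74 (SE 0.03, edgeR adjusted p = 1.12e-13) with genipin+NAC and -0.71 (SE 0.03, edgeR adjusted p = 2.03e-13) with NAC.

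Of 31 G1/S control genes tested out of 32, 16 rose and 10 fell with genipin (0.14), 6 rose and 16 fell with genipin+NAC (-0.23), and 15 rose and 9 fell with NAC (0.06). The share that fell with genipin was near that of all genes. The repressive factors E2f7 and E2f8, which act late in S phase, rose with genipin, E2f7 by 1.02 (SE 0.09, edgeR adjusted p = 3.52e-09) and E2f8 by 1.15 (SE 0.07, edgeR adjusted p = 2.29e-12). Ccna2, cyclin A, rose by 0.83 (SE 0.04, edgeR adjusted p = 2.40e-14) with genipin and 0.73 (SE 0.04, edgeR adjusted p = 2.36e-13) with NAC. Fbxo5, an inhibitor of the anaphase-promoting complex, rose by 1.17 (SE 0.06, edgeR adjusted p = 2.32e-13) with genipin. E2f5, a repressive E2F factor, changed by -0.60 (SE 0.12, edgeR adjusted p = 0.000171) with genipin. Ccnd1, cyclin D1, was called lower with genipin (edgeR adjusted p = 3.17e-07) at very low levels, 0.0387, 0.0893 and 0.0365 CPM with genipin against 0.760, 1.34 and 1.07 CPM with vehicle, with as few as 1 count in a library. Inhibitors of cyclin-dependent kinases divided. Cdkn1a changed by -0.78 (SE 0.03, edgeR adjusted p = 4.45e-14) with genipin. Cdkn2c rose by 0.80 (SE 0.06, edgeR adjusted p = 3.30e-10) with genipin. Cdkn2a changed by -2.84 (SE 0.07, edgeR adjusted p = 2.24e-18) with genipin+NAC and -3.42 (SE 0.07, edgeR adjusted p = 1.94e-19) with NAC. Cdkn1b changed by 1.19 (SE 0.05, edgeR adjusted p = 2.51e-14) with genipin+NAC and 1.09 (SE 0.05, edgeR adjusted p = 1.01e-13) with NAC. Tfdp1, the partner with which E2F factors bind DNA, fell with genipin+NAC (-0.61, SE 0.03, edgeR adjusted p = 6.53e-13).

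Of 18 replication-coupled chromatin and repair genes tested out of 19, 11 rose and 1 fell with genipin (0.51), 2 rose and 10 fell with genipin+NAC (-0.29), and 13 rose and 1 fell with NAC (0.36). Asf1b, a histone chaperone, changed by 0.99 (SE 0.05, edgeR adjusted p = 1.44e-13) with genipin and -0.36 (SE 0.05, edgeR adjusted p = 3.39e-06) with genipin+NAC. Dnmt1, the maintenance DNA methyltransferase, changed by 0.43 (SE 0.03, edgeR adjusted p = 8.88e-12) with genipin and -0.29 (SE 0.03, edgeR adjusted p = 6.40e-09) with genipin+NAC. The 22 mitosis genes, set beside the replication genes for the later part of the cycle, had all 22 higher with genipin (0.65) and all 22 higher with NAC (0.65), and with genipin+NAC 3 were higher, 10 lower and 9 not called (-0.10). The proliferation marker Mki67 changed by 1.23 (SE 0.04, edgeR adjusted p = 5.25e-17) with genipin. Plk1, a mitotic kinase, changed by 1.00 (SE 0.04, edgeR adjusted p = 4.50e-14) with genipin and 0.81 (SE 0.05, edgeR adjusted p = 1.89e-12) with NAC. Values in parentheses after each count are median log2 fold changes, and the difference between the replication and the mitosis lists was not tested.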

How the data were processed

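Per the labels, RNA of 12 libraries was prepared with a stranded total RNA kit after removal of ribosomal RNA; the submitters' processing notes name bcl2fastq, cutadapt 1.18, STAR 2.7.0f, RSEM 1.3.1 and mm10. The authors deposited, per the file headers, expected counts, TPM, FPKM and effective lengths for 55450 genes, whose IDs and symbols equal GENCODE M21. FPKM, as deposited, was not used; TPM, as deposited, served only for levels between genes and a check of direction; effective lengths, as deposited, entered 1 alternative. Deposited expected counts were rounded and tested with edgeR 4.0.16 (R 4.3.3): filterByExpr (13636 genes kept), TMM, 1 mean per group over all 12 libraries with 8 residual degrees of freedom, quasi-likelihood F tests, and Benjamini-Hochberg adjustment over all genes tested. Calls needed an adjusted p under 0.05; a second rule added a 1.5-fold change. SE is the absolute log2 fold change over the square root of F. The interaction is genipin+NAC minus NAC, minus the difference genipin minus vehicle.

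Every member is named; values in every library are given, for each group by function, for the member with the highest TPM and those with the most positive and most negative change with genipin and with NAC. Of the other lists, genes among the 4 smallest p in a comparison, or G1/S control genes past 1.5-fold, could be named. Members and lists were chosen with earlier results of these data known. The tests were also tried on simulated data with known changes. Of 50 changes of 0.25 on the log2 scale, 26 were recovered for genipin against vehicle and 16 for the interaction. Of 50 changes of 0.5, 40 were recovered in each. Of 50 changes of 1, 47 and 45 were recovered. Among 13436 genes without a change, 9 and 19 were called. Alternatives were RLE factors, no factors, other filters, length offsets, only the groups compared, DESeq2 1.42.0, a replicate block and each library left out. Expected counts were split with other genes for Mcm7 and Pcna in all 12 libraries. Figures were drawn with matplotlib 3.10.9.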

Additional observations from a re-analysis of the deposited data

Results flagged for a closer look

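The change with genipin was different in the presence and in the absence of NAC for 38 of the 38 genes, by the interaction test across all genes (edgeR, adjusted p from 5.19e-17 to 0.0193), where 51.4% of all genes were called and 24.0% were called lower. The call of Gins2 was lost without genipin replicate 2 or NAC replicate 1 (adjusted p = 0.0636 and 0.0735). Each value here is that difference in log2 fold change. In origin licensing it was -1.09 for Orc1, -0.84 for Orc6, -1.83 for Cdc6 and -1.16 for Cdt1. In the helicase ring it was -1.31 for Mcm2, -0.91 for Mcm3, -1.18 for Mcm4, -1.14 for Mcm5, -0.16 for Mcm6 and -0.87 for Mcm7. In helicase activation it was -1.34 for Mcm10, -1.13 for Cdc45, -0.84 for Gins1 and -0.32 for Gins2. Among polymerases and primase it was -0.61 for Pola1, -0.50 for Prim1, -0.30 for Pold1 and -0.81 for Pole. In the clamp and its loader it was -0.54 for Pcna, -0.41 for Rfc2, -0.21 for Rfc3, -0.85 for Rfc4 and -0.93 for Rfc5. Fen1 had -1.33 and Lig1 -0.59. Among nucleotide supply genes it was -0.92 for Rrm1, -1.40 for Rrm2, -0.98 for Tyms, -0.65 for Tk1 and -0.29 for Dut. Ccne1 had -1.08, Ccne2 -1.30, E2f1 -0.59 and E2f2 -0.91. Uhrf1 had -1.17, Chaf1a -1.21, Chaf1b -0.74 and Brca1 -1.02. The smallest differences were those of Mcm6 and Rfc3, which did not rise with genipin, and next that of Dut, which did (0.09). The genipin change is subtracted in each difference, so genes with little or no rise tend to small values.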

How the results depend on the processing

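The count of the 38 genes called stayed within 1.5 times its value under every alternative run in all 6 comparisons, and each median kept its sign. Without normalization factors the median moved to 0.51 with genipin, -0.29 with genipin+NAC and 0.26 with NAC against vehicle, to -0.54 with genipin+NAC against NAC and to -1.05 in the interaction, while the median of all genes moved to 0.11 with NAC and to -0.11 in the interaction. Relative to all genes the NAC median was 0.15 either way, as it must be when all genes shift alike. Under that setting the share of all called genes that were higher went to 67.5% with NAC, 35.9% with genipin+NAC against NAC and 35.3% in the interaction, against 49.7%, 50.2% and 53.3% with factors. The NAC changes of Mcm6 (0.12, called), Pcna (0.0205), Rfc3 (0.0014) and Rfc5 (0.003) turned sign there. The factors were 1.043 to 1.048 in NAC and 0.961 to 0.963 in vehicle libraries, so leaving them out moved all genes up alike in this comparison. Why the factors differ was not tested. With a filter at a mean of 5 CPM, genipin+NAC against genipin had a median of -0.74. Leaving out 1 library at a time left 34 to 36 of the 38 called with genipin, 33 to 37 with genipin+NAC, 26 to 29 with NAC, 36 to 37 with genipin+NAC against genipin, 33 to 35 against NAC and 37 to 38 in the interaction. In the same order, 7724 to 8695, 7162 to 7807, 7494 to 8541, 8914 to 9463, 6528 to 7222 and 6641 to 7237 of all genes were called. The full fit tested 13636 genes. The labels do not pair replicates: deviations of same-numbered libraries had correlations of -0.0751 to 0.0437 over 18 pairs, and the best-correlated library of another group carried the same number for 4 of 12 libraries. The replicate block left 36, 37, 29, 36, 35 and 38 called in those comparisons, the same counts as in the full fit. That fit called 61.0%, 57.4%, 59.7%, 69.3%, 53.1% and 51.4% of all genes in the same order. Besides calls lost without 1 library, no filter ended those of Gins1 and Dut with genipin, Orc6 with NAC, and Lig1 and Brca1 with genipin+NAC, and length offsets ended those of Pold1 and Gins1 with genipin, Orc6, Rfc3, Rfc5, Ccne2 and Chaf1a with NAC, Gins2, Pold1, Ccne2 and Brca1 with genipin+NAC, and Pola1 with genipin+NAC against NAC. No factors ended those of Pold1 with genipin, Rfc2 with NAC, Pold1, Lig1, Ccne2 and Brca1 with genipin+NAC, and Pola1 with genipin+NAC against NAC, and added calls for Mcm7, Gins1, Rfc4 and Ccne1 with NAC and for Rfc2 and Tk1 with genipin+NAC against NAC. A filter at 5 CPM ended Dut with genipin, Rfc3 and Rfc5 with NAC, and Lig1 and Brca1 with genipin+NAC, the last 2 also with only the groups compared. DESeq2 ended Gins1 with genipin and Rfc5 with NAC. Apart from the common shift without factors, the causes were not tested. The members with the lowest counts in any library were Gins1 (152), Orc1 (184) and Ccne2 (192), with SE of 0.0865, 0.0729 and 0.0827 on the log2 scale for genipin over vehicle.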

Other observations

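The linker histone genes of the replication-coupled list had low levels, and they are named after their values were seen. Hist1h1a averaged 0.457 CPM with genipin, 0.0934 CPM with genipin+NAC, 0.289 CPM with NAC and 0.0937 CPM with vehicle, from 2 to 14 counts a library. Hist1h1b averaged 0.288 CPM with genipin, 0.273 CPM with genipin+NAC, 0.368 CPM with NAC and 0.0877 CPM with vehicle and did not pass the filter. Hist1h1c alone among the 5 was higher, at 15.6 CPM with genipin, 12.8 CPM with genipin+NAC, 12.01 CPM with NAC and 16.9 CPM with vehicle. Slbp, which binds the stem-loop at the end of replication-dependent histone mRNAs, averaged 125.3 CPM with genipin, 81.4 CPM with genipin+NAC, 95.3 CPM with NAC and 83.0 CPM with vehicle.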
